A study of Rattus norvegicus with 20 samples.

Results

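The 9 subunit genes of the neuronal nicotinic acetylcholine receptors Chrna2, Chrna3, Chrna4, Chrna5, Chrna6, Chrna7, Chrnb2, Chrnb3 and Chrnb4 were followed in the arcuate nucleus of the hypothalamus of 20 female Sprague-Dawley rats on postnatal day 15. Members were all probes that are not controls and carry 1 of these gene names, which gave 9 of 25926 genes on the array, each with 1 probe and 1 spot. There were 4 rats in each of 5 conditions. SNS rats had mothers injected with saline, had no spasms and were given saline after birth. BNS rats had mothers injected with betamethasone, a synthetic glucocorticoid, had no spasms and were given saline. BYS, BYA and BYP rats had the same prenatal betamethasone and infantile spasms triggered by N-methyl-D-aspartate (NMDA), and were given saline, ACTH or PMX53, an antagonist of the C5a receptor, respectively. Betamethasone was given in 2 injections of 0.4 mg/kg on gestational day 15, and NMDA on postnatal days 12, 13 and 15. By the labels the treatments were given on postnatal days 13, 14 and 15, while the paper starts them on postnatal day 12. No condition combined prenatal saline with spasms, and the litter of each rat is not given in the labels.

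Nicotinic receptors are ion channels of several subunits that open when acetylcholine binds and let cations into the cell. Most of those in the brain combine Chrna4 with Chrnb2 or consist of Chrna7 alone, while Chrna3 with Chrnb4 is the pair best known from autonomic ganglia and the medial habenula, and Chrna6 and Chrnb3 are best known from dopamine neurons of the midbrain. In the arcuate nucleus, nicotinic receptors with Chrnb4 on Pomc neurons are known for the effect of nicotine on feeding.

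RNA of each rat was labelled with Cy3 or Cy5, and both channels of an array held rats of the same condition, except on the arrays of BYA replicates 3 and 4, where the other channel belongs to another series. Levels are log2 intensities after background correction and quantile normalization, and a probe's level is not compared with that of another probe. The ratio of signal to background, as a median over spots, was lowest in SNS (6.89) and BYA (7.48), 9.12 in BYP and highest in BNS and BYS (15.9 in both). No slide held more than 1 condition, and BYA alone used a second slide (for replicate 3), which means that condition and slide cannot be told apart. The labelled dye of BYA replicate 3 was used, although the name of its raw data orders the channels the other way. Every sample of the 20 had all 12 arcuate neuron marker genes well above background. Of 5 marker genes of the medial habenula, 3 (Tac1, Nr4a2 and Kcnip1) were well above background in all 20 samples, and Pou4f1 and Gpr151 in none. No gene of 5 from midbrain dopamine neurons was above background in all 20. The 4 Y-linked genes and Xist had no probe under these names, so the labelled sex was not checked. Precision is limited by how many arrays there were.

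The probe sequences are given for 4 of the 5 tested genes, those whose probe has a reading frame open to its last codon, because each level below is the signal of that single stretch of 60 bases. They are printed 5′ to 3′ in lower case, with the rat build rn4 of the array files.
Chrna4, chr3:170171576-170174943, minus strand: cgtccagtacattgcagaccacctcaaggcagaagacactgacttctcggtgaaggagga
Chrnb4, chr8:58586979-58587038, minus strand: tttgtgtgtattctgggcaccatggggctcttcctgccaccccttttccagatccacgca
Chrna3, chr8:58572596-58572655, minus strand: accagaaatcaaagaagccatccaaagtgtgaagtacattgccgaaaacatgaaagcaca
Chrna7, chr1:117587580-117587639, minus strand: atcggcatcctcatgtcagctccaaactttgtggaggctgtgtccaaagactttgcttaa
The Chrna4 probe covers 3368 bases of the genome with its 60 bases and so spans a gap between its aligned parts, while the other 3 align without one. The probes of Chrna3 and Chrna7 hold 40.0% and 46.7% G and C, those of Chrna4 and Chrnb4 53.3% and 55.0%. The Chrnb2 probe lies at chr2:181961457-181961516 on the minus strand. Chrna5, Chrna3 and Chrnb4 neighbour each other on chromosome 8, and Chrna6 neighbours Chrnb3 on chromosome 16.

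Of the 9 genes, Chrnb4 was well above background in all 20 samples and Chrna4 in 19, with SNS replicate 1 as the exception. Chrna3 was above background in 13 samples, Chrna7 in 13, Chrnb2 in 11 and Chrna5 in 5. Chrna2, Chrna6 and Chrnb3 were above background in none. In BYS 5 genes were above background in all 4 rats, against 3 in BNS, 2 in BYA, 2 in BYP and 1 in SNS, and BNS and BYS are also the conditions with the brightest arrays. The dye moved with these calls, since 30 of 90 values were above background in Cy3 (33.3%) and 51 of 90 in Cy5 (56.7%), against 55.8% and 69.9% for all probes. Chrna7 was above background in 3 Cy3 and 10 Cy5 samples, and Chrnb2 in 2 Cy3 and 9 Cy5 samples.

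**Figure D1:**
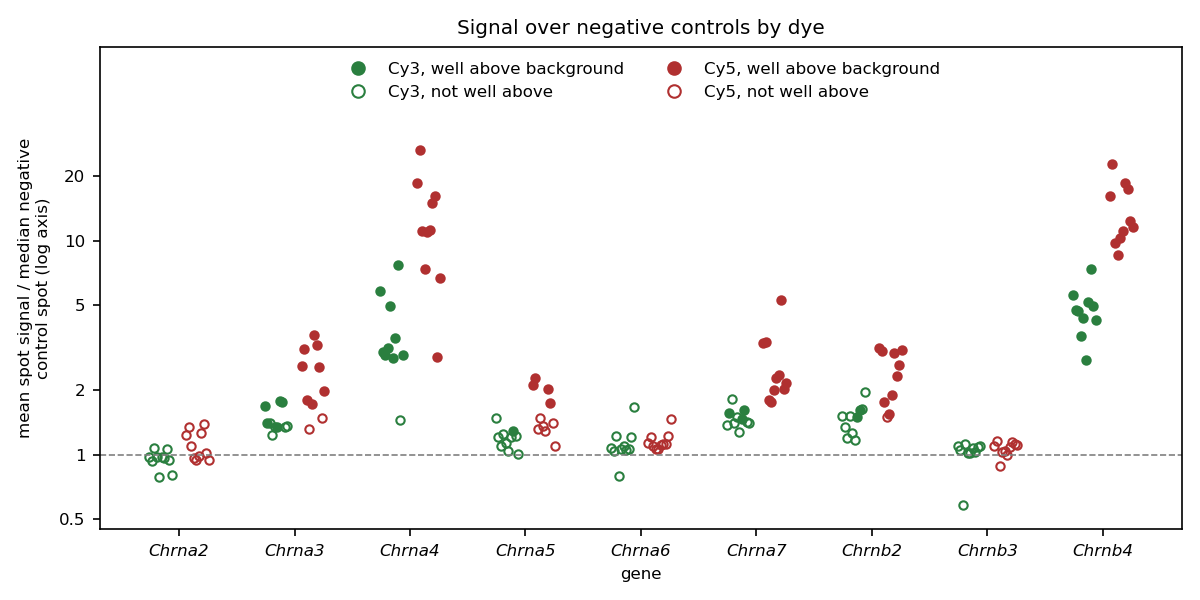
Mean signal of the probe of each gene divided by the median negative control spot of the same channel (log axis), with 1 point per sample, green for Cy3 and red for Cy5, filled where the spot was well above background. The dashed line marks a ratio of 1, around which Chrna2 and Chrnb3 lie in both dyes, while the Cy5 values of Chrnb4 run from 8.52 to 22.8.

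Only genes whose probe was well above background throughout 1 or more conditions were tested, a filter that Chrna3, Chrna4, Chrna7, Chrnb2 and Chrnb4 passed and the other 4 did not. Tests were made with limma on 17086 genes, and a gene was called at a Benjamini-Hochberg adjusted p under 0.05. Over all 5 conditions, the moderated F test called Chrna4 (limma adjusted p = 0.00316) and Chrnb2 (limma adjusted p = 0.0421) of the 5, where 30.3% of all genes were called. All calls between 2 conditions were in comparisons with SNS, and none of the 5 genes was called between any 2 of BNS, BYS, BYA and BYP.

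**Figure D2:**
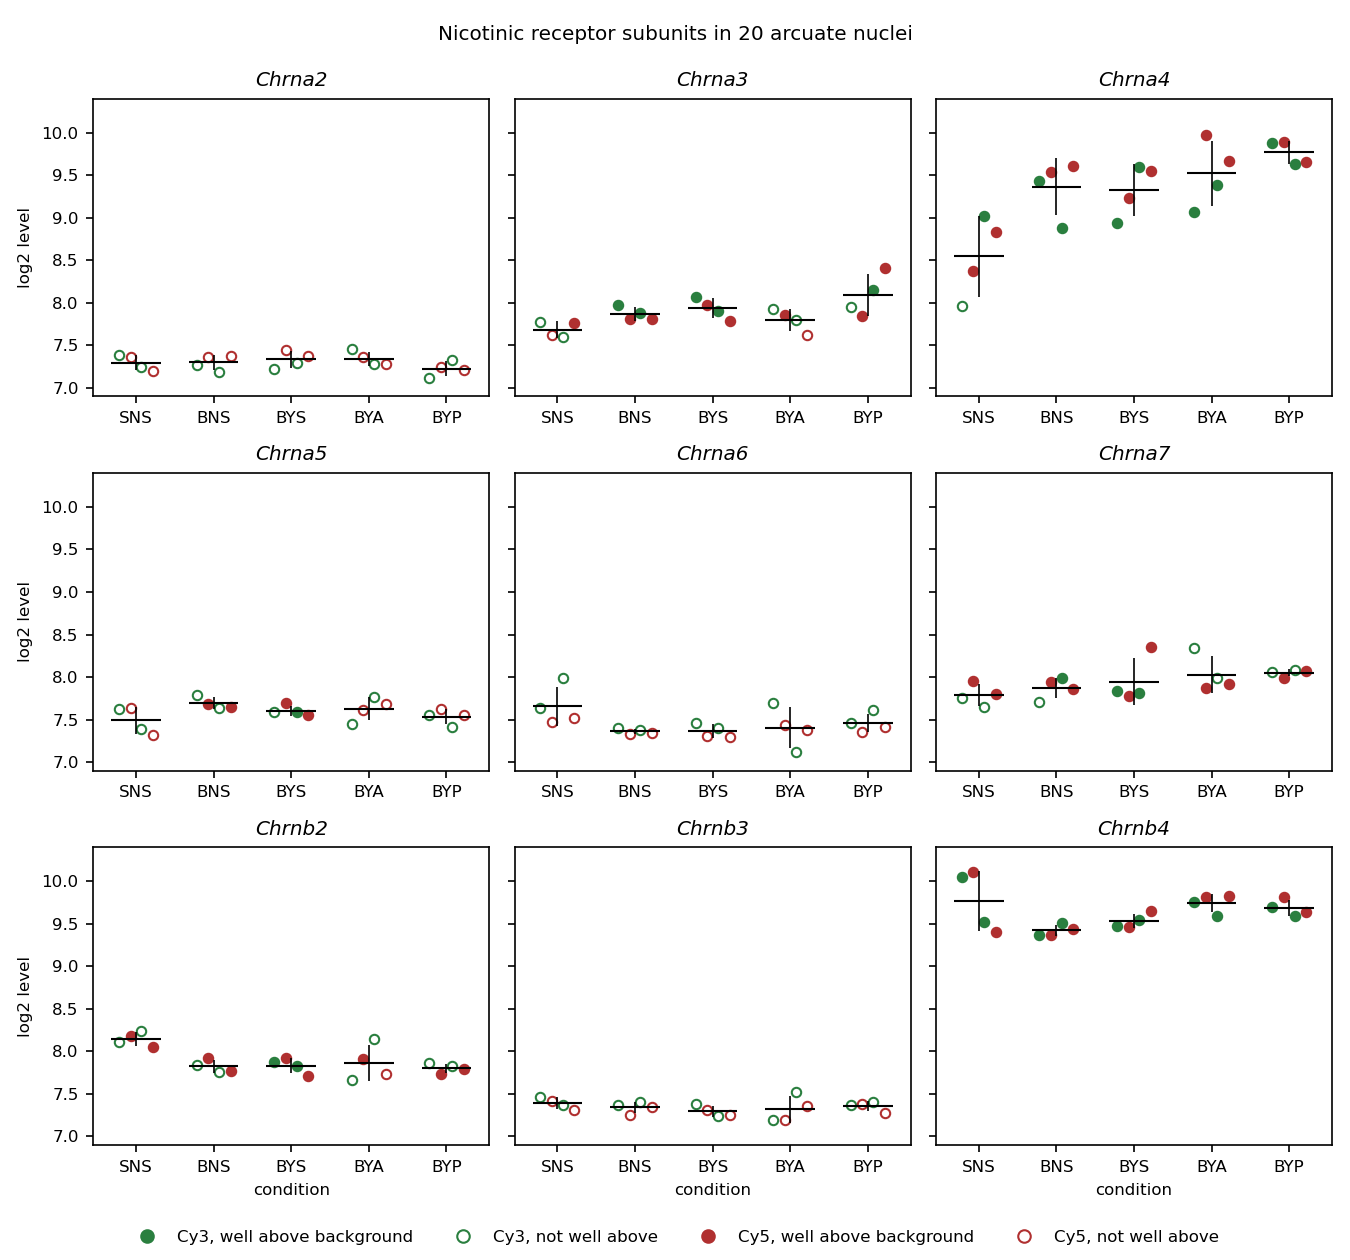
Log2 level of the 9 genes in each of 20 rats by condition, green for Cy3 and red for Cy5, filled where the spot was well above background; bars are the mean and SD of 4 rats. All 4 BYP values of Chrna4 (9.64 to 9.89) lie above all 4 SNS values (7.96 to 9.02), and Chrnb4 is at 10.04 and 10.10 in SNS replicates 1 and 2 and at 9.52 and 9.41 in replicates 3 and 4.

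Chrna4, the partner of Chrnb2 in the most common receptor of the brain, was higher in the 4 betamethasone conditions than in SNS. Its log2 levels in SNS were 7.96, 8.38, 9.02 and 8.83. In BNS they were 9.43, 9.54, 8.88 and 9.61. The SNS and BNS values overlapped through SNS replicate 3 and BNS replicate 3, and the other 3 BNS values lay above all SNS values. In BYS the levels were 8.94, 9.23, 9.60 and 9.55, which overlap SNS through BYS replicate 1. In BYA they were 9.07, 9.97, 9.38 and 9.66, and in BYP 9.88, 9.89, 9.64 and 9.66, all of them above all SNS values. Groups without overlap occurred in 26.7% of all genes between BYA and SNS and in 26.6% between BYP and SNS.

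The mean log2 level of Chrna4 was 8.55 ± 0.48 (SD, n = 4) in SNS, 9.36 ± 0.33 in BNS, 9.33 ± 0.31 in BYS, 9.52 ± 0.39 in BYA and 9.77 ± 0.14 in BYP. BNS exceeded SNS by 0.82 on the log2 scale, or 1.76-fold (standard error 0.21, limma adjusted p = 0.00851). BYS exceeded SNS by 0.78 (standard error 0.21, limma adjusted p = 0.0115) and BYA did so by 0.97 (standard error 0.21, limma adjusted p = 0.00229). The difference was 1.22 in BYP, or 2.33-fold (standard error 0.21, limma adjusted p = 0.000406). These 4 comparisons share the SNS samples. The fit took the 2 rats of an array as independent, so these standard errors leave out any likeness between them. Chrna4 differed by 0.304 on average between rats on 1 array and by 0.451 between rats of 1 condition on different arrays. With the array as a random block (correlation 0.365), the share of all genes called in BNS against SNS fell from 28.6% to 15.1%. Without the first SNS array, which held SNS replicates 1 and 2, the differences fell to 0.44 in BNS (limma adjusted p = 0.16), 0.40 in BYS (0.194) and 0.59 in BYA (0.0535), and were 0.84 in BYP (limma adjusted p = 0.0108). Without BYS replicate 3 alone, the adjusted p for BYS was 0.0516. With the scanner software's processed signals, Chrna4 was called in BYP (limma adjusted p = 0.00629) and not in BNS (0.091), BYS (0.0977) or BYA (0.0629), at differences of 0.78, 0.76 and 0.89. With channels scaled to the same 75th percentile, the BYS difference of 0.74 was not called (limma adjusted p = 0.0571). With the methods' unequal-variance test and Benjamini-Hochberg adjustment over all genes, none of the 4 Chrna4 differences was called.

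Between rats with and without spasms after betamethasone, Chrna4 levels overlapped. The difference BYS minus BNS was −0.04 (standard error 0.21, 95% interval −0.48 to 0.41, limma adjusted p = 0.999). All 4 BYP values lay above all 4 BNS and all 4 BYS values, by 0.40 on average over BNS (limma adjusted p = 0.325) and by 0.44 over BYS (limma adjusted p = 0.597), and groups without overlap occurred in 13.2% and 4.71% of all genes in these comparisons. From lowest to highest, the means ran SNS, BYS, BNS, BYA, BYP, and of the neighbours in that order only SNS and BYS were called different.

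Chrnb2, the other part of that receptor, had its highest mean in SNS, but the direction of its differences from SNS turned under other processing. Its log2 levels were 8.11, 8.18, 8.24 and 8.05 in SNS, 7.84, 7.92, 7.76 and 7.77 in BNS, and 7.88, 7.92, 7.82 and 7.71 in BYS. In BYA they were 7.66, 7.91, 8.14 and 7.74, and in BYP 7.86, 7.73, 7.83 and 7.79. All SNS values lay above all values of BNS, BYS and BYP (32.4%, 27.1% and 26.6% of all genes had no overlap in these comparisons), and in BYA replicate 3 alone reached into them.

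Chrnb2 was lower than in SNS by a log2 difference of −0.32 in BNS (standard error 0.10, limma adjusted p = 0.0188), −0.31 in BYS (standard error 0.10, limma adjusted p = 0.0233), −0.28 in BYA (standard error 0.10, limma adjusted p = 0.0334) and −0.34 in BYP (standard error 0.10, limma adjusted p = 0.0131), but with the scanner software's processed signals the differences were 0.01, 0.13, 0.26 and 0.06, with none called. With channels scaled to the same 75th percentile instead of quantile normalization, the difference turned to 0.20 in BNS and 0.57 in BYP, and with the same median to 0.15 in BYP, none of them called. When the array entered the fit as a random block, Chrnb2 lost all 4 calls (limma adjusted p from 0.0616 to 0.109). Leaving out single samples ended the call in BNS without BNS replicate 3 (limma adjusted p = 0.0502), in BYS without SNS replicate 2 or 3 or BYS replicate 3 or 4 (0.0574 to 0.0614), and in BYA without SNS replicate 2 or 3 or BYA replicate 1 or 4 (0.0781 to 0.121). Without the first SNS array, Chrnb2 was called in BYP (limma adjusted p = 0.0467) and not in BNS (0.0631), BYS (0.0698) or BYA (0.0916). In SNS the probe was above background in 2 of 4 samples, both of them Cy5. Elsewhere it was so for 2 BNS, 4 BYS, 1 BYA and 2 BYP samples, and only BYS carried Chrnb2 past the filter. Its signal over the negative control spots, which was not normalized between arrays, had a median of 2.30 for SNS and 2.29 for BNS. That median was 1.98 for BYS, 1.51 for BYA and 1.41 for BYP.

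**Figure D3:**
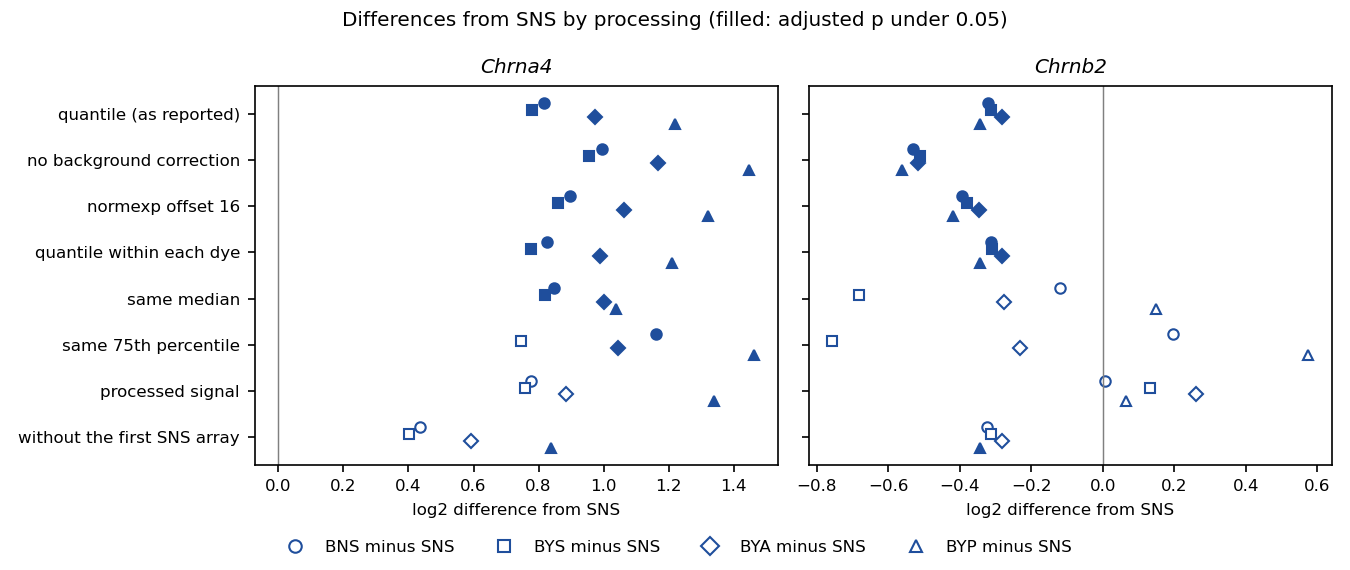
Log2 difference from SNS of Chrna4 (left) and Chrnb2 (right) under the reported processing and 7 alternatives, by comparison, filled where the limma adjusted p was under 0.05. Chrna4 is above 0 in each setting drawn, while Chrnb2 lies above 0 in all 4 comparisons with processed signals and on both sides of 0 with same-median and same-75th-percentile scaling.

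In BNS against SNS, limma called 2 of the 5 genes, where 28.6% of all genes were called. The numbers were also 2 of 5 in BYS (27.1% of all genes) and in BYA (31.3%), and 3 of 5 in BYP (28.9%). Over 5 genes, counts of 2 or 3 lie near what these shares of the whole array give. The median difference of the 5 genes was 0.08, 0.16, 0.11 and 0.26 in BNS, BYS, BYA and BYP, against −0.04, −0.03, −0.04 and −0.04 for all genes. SNS arrays were also dimmer than those of BNS and BYS, and the part of signal strength in these differences was not tested. In a bulk sample, fewer cells of a type and less RNA per cell cannot be told apart.

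Some marker genes of other cells were called in the same comparisons. Of 3 red blood cell genes, 2 were called higher than in SNS in each of BNS, BYS and BYA, and none in BYP, with summed log2 levels of 16.5 to 16.9 in SNS and 16.1 to 17.3 in the other conditions. Of the 5 choroid plexus genes, 2 were tested and 1 was called lower in BYA, with summed levels of 11.9 to 12.9 in SNS and 11.2 to 12.0 in the others. No medial habenula gene was called against SNS, and the summed level of its 5 genes was 13.1 to 14.5 in SNS and 12.8 to 14.0 in the others. Of 4 midbrain dopamine genes tested, 1 or 2 were called higher and 1 lower than in SNS in each comparison. Of 3 endothelial genes, 2 were called lower in BYS and in BYA, with summed levels of 12.2 to 12.6 in SNS and 11.53 to 12.34 in the others. Of 4 microglial genes, 1 was called lower in each of BNS, BYS and BYP and 1 higher in BYP, with sums of 13.1 to 13.2 in SNS and 12.5 to 13.2 in the others. Of 3 ventromedial hypothalamus genes 1 was called higher in each of the 4 comparisons, and of 3 ependymal genes 1 was called lower in each of BYA and BYP. Of 5 thalamic genes 1 was called lower in each of BNS, BYA and BYP and 1 higher in each of BYS, BYA and BYP, and of 2 magnocellular genes 1 lower in BNS. Of the 12 arcuate neuron genes, 1 was called lower in BNS, 2 in BYS and none in BYA or BYP. The 2 pituitary genes tested were not called. The part of these cells in the results was not tested.

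Chrna3, a ganglionic subunit, had log2 levels of 7.77, 7.62, 7.59 and 7.77 in SNS and 7.98, 7.81, 7.87 and 7.81 in BNS. In BYS they were 8.07, 7.97, 7.91 and 7.79, in BYA 7.92, 7.86, 7.80 and 7.62, and in BYP 7.96, 7.85, 8.15 and 8.41. All BNS, BYS and BYP values lay above all SNS values, and BYP replicate 4 was the highest of the 20. Groups without overlap occurred in 32.4% of all genes between BNS and SNS, in 27.1% between BYS and SNS and in 26.6% between BYP and SNS.

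The mean of Chrna3 was 7.69 ± 0.09 (SD, n = 4) in SNS and 8.09 ± 0.25 in BYP, a difference of 0.40 (standard error 0.11, limma adjusted p = 0.0112), which was 0.29 without BYP replicate 4 (limma adjusted p = 0.0407). It was 1.60 with processed signals (limma adjusted p = 0.0592) and 1.22 with channels scaled to the same 75th percentile (limma adjusted p = 0.0535). It was also not called with only BYP and SNS in the fit (limma adjusted p = 0.0731) or by the methods' test after adjustment. BYS minus SNS was 0.25 (standard error 0.11, limma adjusted p = 0.102), and it was −0.05 with channels scaled to the same median and −0.13 with the same 75th percentile. BYP minus BYA was 0.29 (standard error 0.11, limma adjusted p = 0.257), where 13.6% of all genes had an unadjusted p under 0.05, and it was 0.17 without BYP replicate 4 (limma adjusted p = 0.485). Only 1 of the 4 SNS samples was above background for this probe.

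Chrnb4, which pairs with Chrna3, was the 1 gene of the 9 above background in all samples. It had log2 levels of 10.04, 10.10, 9.52 and 9.41 in SNS, 9.37, 9.37, 9.51 and 9.44 in BNS, and 9.47, 9.47, 9.54 and 9.65 in BYS. In BYA they were 9.75, 9.82, 9.59 and 9.82, and in BYP 9.70, 9.81, 9.59 and 9.64. SNS replicates 1 and 2, which shared an array, had the highest values of all 20 samples, while the SNS pair on the other array lay among the BNS and BYS values. Over all conditions, rats on 1 array differed by 0.0668 on average and rats of 1 condition on different arrays by 0.221.

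No difference of Chrnb4 was called with the reported processing. BNS minus SNS was −0.35 (standard error 0.13, limma adjusted p = 0.0528). With processed signals it was −0.70 and was called (limma adjusted p = 0.00515). It was also called without background correction (limma adjusted p = 0.0478) and without SNS replicate 3 (0.0281) or 4 (0.00636). It was −0.04 without the first SNS array (limma adjusted p = 0.802). With the slide as a block it was called (limma adjusted p = 0.00714), in a fit that called 47.7% of all genes. As no slide held more than 1 condition, that fit cannot set slide apart from condition. BYA minus BNS was 0.32 (standard error 0.13, limma adjusted p = 0.297), where 13.1% of all genes had an unadjusted p under 0.05. All 4 BYA values and all 4 BYP values lay above the 4 BNS values, and groups without overlap occurred in 8.65% and 13.2% of all genes. Without the first SNS array, BYA minus SNS was 0.28 and was called (limma adjusted p = 0.0447), against −0.02 with all samples. Across the 20 samples with the dye effect removed, the levels most like those of Chrnb4 were those of Zyg11b (Pearson r = 0.869) and of 2 probes without a gene name (r = 0.921 and 0.863), as a description over samples that share arrays.

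Chrna7, which forms receptors without other subunits, was called in no comparison. It had mean log2 levels of 7.79 ± 0.13 (SD, n = 4) in SNS, 7.87 ± 0.12 in BNS, 7.95 ± 0.27 in BYS, 8.03 ± 0.21 in BYA and 8.05 ± 0.04 in BYP. Its 10 differences ran from 0.02 to 0.26, with unadjusted limma p of 0.0533 or higher. All 4 BYP values lay above all SNS and all BNS values (26.6% and 13.2% of all genes without overlap). The probe was well above background in only 2 of 4 samples in BYP and in SNS, and in 3 of 4 in BNS. The gene passed the filter through BYS alone. In BYS the values were 7.84, 7.78, 7.81 and 8.35, with replicate 4 apart from the others.

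**Figure D4:**
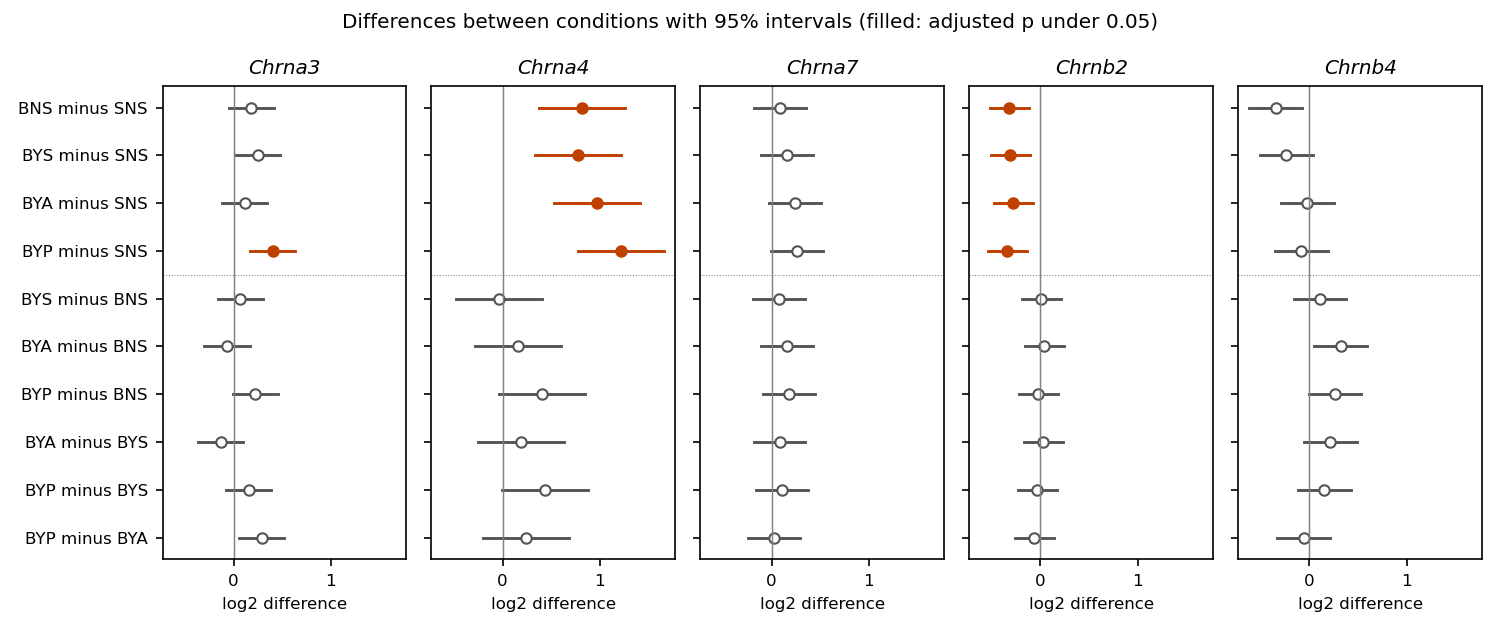
Log2 difference of the 5 tested genes (points) with 95% intervals from limma (lines) in all 10 comparisons, filled and orange where called. Calls are in the comparisons with SNS above the dotted line, 4 for Chrna4, 4 for Chrnb2 and 1 for Chrna3, and those of Chrnb2 changed sign with processed signals.

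After betamethasone, limma called none of the 5 genes in BYS against BNS (0.0293% of all genes called), in BYA against BNS (0.117%) or in BYP against BNS (1.5%). It called none in BYA against BYS (0%), in BYP against BYS (0.0351%) or in BYP against BYA (0.158%). At an unadjusted p under 0.05, limma had 0 of 5 in BYS against BNS (6.92% of all genes), 1 of 5 in BYA against BNS (13.1%), 0 of 5 in BYP against BNS (17.8%), 0 of 5 in BYA against BYS (8.07%), 0 of 5 in BYP against BYS (8.5%) and 1 of 5 in BYP against BYA (13.6%). In BYS minus BNS the differences ran from −0.04 to 0.11, in BYA minus BNS from −0.07 to 0.32 and in BYP minus BNS from −0.02 to 0.40. Between treated and untreated rats with spasms they ran from −0.13 to 0.21 for ACTH and from −0.03 to 0.44 for PMX53. For Chrna4 in BYP minus BYS the 95% interval reached 0.88.

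The comparisons without SNS were also judged by a combined criterion after the study's methods. It joins an unadjusted test to a fold cut-off that grows with the spread of both conditions. The cut-off here used the spread between samples alone, while the study's also pools technical variability, so the calls are not the study's own. Chrnb4 passed in BYA against BNS (ratio 1.25, cut-off 1.12) and in BYP against BNS (ratio 1.20, cut-off 1.12). It also passed in BYA against BYS (ratio 1.16, cut-off 1.12). Chrna4 passed in BYP against BNS (ratio 1.32, cut-off 1.29). No gene of the 5 passed in BYS against BNS, BYP against BYS or BYP against BYA. Of all genes, 8.04% met the criterion in BYS against BNS, 11% in BYA against BNS, 16.4% in BYP against BNS, 5.83% in BYA against BYS, 6.43% in BYP against BYS and 8.21% in BYP against BYA.

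Chrna5, an accessory subunit, was above background in 2 of 4 BNS and 3 of 4 BYS samples and in no other sample. Its log2 levels were 7.79, 7.68, 7.64 and 7.65 in BNS, of which replicates 2 and 4 were above background, and 7.59, 7.69, 7.59 and 7.56 in BYS, of which replicate 1 was not. They ran from 7.32 to 7.63 in SNS, from 7.45 to 7.77 in BYA and from 7.42 to 7.63 in BYP. The gene did not pass the filter and was not tested, and no fold is given because no condition had it above background in all 4 rats. Chrna2, an alpha subunit of few cell groups in the brain, had levels from 7.11 to 7.45. Chrnb3 levels ran from 7.19 to 7.52 and Chrna6 levels from 7.11 to 7.99. As these 3 were not well above background in any sample, no fold is given for them.

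The other genes of the pathway were 7 further nicotinic subunits, 14 chaperones and accessory proteins, and 6 genes that make, move or break down acetylcholine. Of the 27, 26 had a probe and 20 were tested. Against SNS, limma called 4 of the 20 higher and 4 lower in BNS, 4 higher and 3 lower in BYS, 4 higher and 2 lower in BYA, and 4 higher and 3 lower in BYP, beside 15.1% of all genes higher and 13.5% lower in BNS, 14.5% and 12.6% in BYS, 15.8% and 15.4% in BYA, and 15.4% and 13.5% in BYP. Their median differences were −0.01, 0.01, −0.02 and −0.27. Between BNS, BYS, BYA and BYP, 0 of the 20 were called by limma in any of the 6 comparisons, and 0 to 4 had an unadjusted p under 0.05.

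The muscle subunit Chrna1 was higher than in SNS by 0.62 in BNS, 0.60 in BYS, 0.69 in BYA and 0.58 in BYP, with a highest limma adjusted p of 0.000605. Bche, the enzyme butyrylcholinesterase, was higher by 0.58 to 0.69, from log2 levels of 7.45 to 7.58 in SNS. Tmem35a, also named NACHO, which helps nicotinic receptors assemble, was higher by 1.05 to 1.15, and Rer1, which retains unassembled subunits in the cell, was higher by 0.81 to 0.87, with missing values in SNS and in BNS. Under 6 alternatives of background and scaling the 24 differences of each gene were above 0, but not all were called, with 22 of 24 called for Chrna1, 20 for Bche, 21 for Tmem35a and 16 for Rer1. Rer1 was called in no comparison with processed signals (differences 0.39 to 0.50) or with the same median, and Bche was at 0.38 in BYS with the same 75th percentile (limma adjusted p = 0.564). The size for Bche depended on the processing, from 0.38 to 2.61 under these alternatives, with 2.3 to 2.61 under processed signals.

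Lynx1 and Lypd6b are proteins of the Ly6 family that bind nicotinic receptors at the membrane. Lypd6b differed from SNS by −0.34 in BNS, −0.45 in BYS, −0.38 in BYA and −0.45 in BYP, with a highest limma adjusted p of 0.0228. Under the alternatives 17 of its 24 differences were called, and with the same 75th percentile none was, at −0.12 in BNS (limma adjusted p = 0.729) and −0.05 in BYP (limma adjusted p = 0.861). Lynx1 differed by −0.75 in BNS (limma adjusted p = 0.00143) and −0.51 in BYS (limma adjusted p = 0.0192), by −0.35 in BYA and −0.35 in BYP, neither called, and with processed signals it differed by −0.47 in BNS, −0.26 in BYS and 0.04 in BYA, none called. Chat, which makes acetylcholine, did not pass the filter on dim probes.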

How the data were processed

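The authors deposited scanner output for each array. Spot means and local background medians are intensities with nothing subtracted, per the file headers, and the processed signals are intensities after the extraction software's own background and dye correction. The software was Agilent Feature Extraction 10.7.3.1 in the submitters' processing notes and 11.5.1.1 in the file headers. The flags for spots well above background, outlier and saturated spots are deposited as well, per the file headers. The 82 columns of another series were not used.

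Background was corrected with limma's normexp (offset 50), and 20 channels on 11 arrays were quantile normalized on the log2 scale. Outlier spots were left out, and probes with at least 0.5 of their spots well above background in all 4 samples of a condition were kept (19883 of 30367, of 17086 genes). limma 3.58.1 in R 4.3.3 (statmod 1.5.0, package data.table, version 1.17.8) was fitted once to all samples, with a dye covariate and no term for the array. Tests were two-sided, with Benjamini-Hochberg adjustment over all genes. The methods were tested on simulated data with independent noise in each channel, so this check does not cover the likeness of rats that share an array. The planted differences were larger than any of the tested nicotinic genes with the reported processing. The check therefore does not cover differences of the sizes reported. Alternatives changed the background correction, the scaling, the filter on dim probes, the handling of probes and outlier spots, the blocks and covariates, the test and the samples in the fit. With 4 samples against 4, a permutation test allows no p below 0.0286.

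The genes, lists and tests were chosen with earlier results of these data known. A difference is given with its test for pairs called or with an unadjusted p under 0.05, and for Chrna4 between BYS and BNS. Of the other pathway genes, the 6 with the lowest adjusted p among those called are named. The cut-off of the combined criterion was taken as 1 + sqrt(2 × sum of both squared coefficients of variation). Replicate numbers did not pair samples (mean correlation 0.0031, from −0.239 to 0.28).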

Additional observations from a re-analysis of the deposited data

Results flagged for a closer look

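Chrna7 in BYS replicate 4 had a log2 level of 8.35, while the other 3 BYS rats lay between 7.78 and 7.84. The gap to the nearest of the others was 0.907 of the whole range of the group. Of 45 groups of 4 samples examined over the 9 genes, this was the 1 that stood out by this measure, and chance gives about 1 in 20.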

How the results depend on the processing

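As reported, limma called 2 of the nicotinic genes in BNS, 2 in BYS, 2 in BYA and 3 in BYP against SNS, 2 over all conditions, and 0 between the other conditions. With processed signals the counts were 1 in BNS, 1 in BYS, 0 in BYA and 1 in BYP (13.7%, 13.6%, 11.4% and 15.9% of all genes). With channels scaled to the same median they were 1 in BNS, 1 in BYS, 1 in BYA and 1 over all conditions (15.5%, 8.44% and 8.13% of all genes in BNS, BYS and BYA), with 2 in BYP against BYS, where this scaling called 16.7% of all genes. With the same 75th percentile they were 1 in BNS, 0 in BYS, 1 in BYA, 1 in BYP (14.8%, 13.6% and 20.4% of all genes in BNS, BYA and BYP, and 1820 of 17083 genes in BYS) and 1 over all conditions. The median difference of all genes from SNS in BNS, BYS, BYA and BYP was −0.0444, −0.0333, −0.0393 and −0.0442 as reported, −0.138, −0.129, −0.0603 and −0.106 with the same median, and 0.176, −0.203, −0.0168 and 0.318 with the same 75th percentile. With probes above background in all 20 samples, which left Chrnb4 alone, the count was 0 in BNS, BYS, BYA and BYP and over all conditions. With the array as a random block (correlation 0.365) it was 1 in BNS, 1 in BYS, 1 in BYA (15.1%, 13.9% and 19.4% of all genes) and 1 over all conditions. With the slide as the block (correlation −0.128) it was 4 over all conditions, where 45.5% to 47.7% of all genes were called in the comparisons with SNS. As no slide held more than 1 condition, the slide fit cannot set slide apart from condition. With no filter on dim probes it was 3 in BNS (24.1% of all genes), with Chrna6 as the added gene, whose probe was well above background in no sample. With only the 2 conditions compared it was 1 in BYS and 1 in BYA (19.8% and 17.7% of all genes).

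The methods' test without adjustment gave 1 gene in BYA against BNS (11.8% of all genes), 2 in BYP against BNS (17.2%), 1 in BYA against BYS (6.33%), 1 in BYP against BYS (6.98%) and 1 in BYA against SNS (31.6%). Adjusted, it gave 1 in BNS, 1 in BYS, 0 in BYA and 1 in BYP against SNS (18.8%, 13.5%, 9.11% and 11.8% of all genes), each time Chrnb2, so that Chrna4 and Chrna3 lost all their calls. Between conditions other than SNS, the combined criterion gave 1 in BYA against BNS, 2 in BYP against BNS and 1 in BYA against BYS. Against SNS, Chrna3, Chrna4 and Chrnb2 met it in BNS and BYS, these and Chrna7 in BYP, and Chrna4 alone in BYA. Of all genes, 37.4%, 33.2%, 31.1% and 32.1% met it in BNS, BYS, BYA and BYP. Without adjustment, the methods' test gave the same genes against SNS (38.1%, 33.8%, 31.6% and 32.8% of all genes). Without the first SNS array, an alternative chosen after seeing the data, the counts against SNS were 0 in BNS, 0 in BYS and 1 in BYA (22.3%, 22.5% and 26.2% of all genes), and 1 over all conditions; without the BYA samples that shared arrays with another series, also chosen after seeing the data, no count changed by over 1.5 times. Leaving out 1 sample at a time gave 1 to 3 against SNS in BNS, between 0 and 3 in BYS, between 1 and 2 in BYA and always 3 in BYP, and 1 to 2 over all conditions. Of all genes, these fits called 20.9% to 26.8% in BNS and 18.6% to 25.9% in BYS. The shares were 24.9% to 31.4% in BYA and 24% to 26.6% in BYP.

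The sign turned for Chrnb2 with processed signals (0.0051 in BNS, 0.13 in BYS, 0.26 in BYA and 0.063 in BYP), with the same median (0.15 in BYP) and with the same 75th percentile (0.20 in BNS and 0.57 in BYP). It turned for Chrna3 in BYS against SNS with the same median (−0.055) and the same 75th percentile (−0.13). Chrna4 in BYS against BNS was between −0.17 (BYS replicate 3 left out) and 0.059 (BYS replicate 1 left out), and above 0 in 4 of 8 cases. The cause was not tested. With the replicate number as a block, the counts were 2, 2, 2 and 3 against SNS, 2 over all conditions and 0 elsewhere, and it changed no call. Same-numbered samples share a number and a labelled dye, and the replicate block stood in place of the dye covariate. Signal over background, lowest in SNS and BYA, limits Chrna3, Chrna7 and Chrnb2.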
